A study of Homo sapiens with 12 samples.

Results

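The vehicle-treated NCI-H295R cells (VEH) held abundant mRNA for the uptake and making of cholesterol and for the steroid enzymes CYP11A1, CYP17A1 and CYP21A2, whereas HSD3B2 was low and CYP11B1 and CYP11B2, of the last step, were listed at or next to 0. Markers of all 3 zones of the adrenal cortex were found side by side, and TH, DBH and PNMT of catecholamine synthesis were listed at or next to 0. DLK1, IGF2, CTNNB1 and a group of MAGE cancer-testis genes were prominent. H295R cells derive from a human carcinoma of the adrenal cortex and still secrete cortisol. The 4 VEH samples, out of 12 in the series, were chosen by their treatment label alone.

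All groups came from confluent H295R cultures that had been kept without serum for 12 h. For the next 24 h the medium held 0.1% DMSO as VEH, or 30 µM of a cortisol synthesis inhibitor, either CJ28 or metyrapone (MET), with 4 samples each, which the series' design text calls biological replicates. As a model, VEH is a single tumour line in serum-free medium with solvent, not adrenal tissue. No untreated sample without solvent was among those analysed here. The deposited values were TPM, the number of transcripts of a gene per 1000000 transcripts of the library. The libraries were depleted of ribosomal RNA and not selected for mRNA. Nuclear protein-coding genes made up 24.3% to 24.8% of the TPM of a VEH sample, and each sample was rescaled until its 19926 nuclear protein-coding genes summed to 1000000. All levels below are on this rescaled TPM, where the last deposited decimal was worth 0.0403 to 0.0411. The paper gives the number of input reads of each library, but TPM keeps no read number per gene. The reads behind a value were therefore unknown, and a gene listed at 0 was not shown to be absent. Whether the 4 samples were separate cultures is not stated beyond the word biological, so the SD describes the spread between these samples.

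The adrenal cortex makes steroids from cholesterol in 3 zones. The outer zona glomerulosa makes aldosterone under angiotensin II, the zona fasciculata makes cortisol under ACTH, and the inner zona reticularis makes androgens. Cholesterol enters mitochondria with the help of STAR, CYP11A1 cuts its side chain to give pregnenolone, and HSD3B2, CYP17A1, CYP21A2 and CYP11B1 carry it to cortisol, while CYP11B2 makes aldosterone.

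Of the 19926 genes, 12774 (64.1%) were at 1 or more in all 4 VEH samples, 1939 at 100 or more and 130 at 1000 or more. A further 6069 were under 1 in all 4 samples, and 2245 (11.3%) were listed at 0 in all 4. The counts of list and family members at 1 or more given below are to be set beside the 64.1% over all coding genes. The 10 most abundant genes held 4.91% of the coding TPM and the 50 most abundant 13.6%. The samples lay close together, with a Pearson correlation between pairs of 0.984 to 0.987 on log2(TPM + 0.1) over the 13302 genes with a mean of at least 1. The precision fell with the level: the median coefficient of variation (SD divided by the mean) was 3.30% for the 138 genes with a mean of 1000 or more, 6.92% for the 7448 genes from 10 to 100, and 52.6% for the 2734 genes from 0.1 to 1.

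The most abundant coding RNA was that of PPIA, cyclophilin A, which aids protein folding. It stood at 12578, 12581, 12515 and 11912 in VEH-1 to VEH-4, more than any other gene in each sample. RPL41, a protein of the large ribosomal subunit, followed with 5489 ± 96.6 (SD, n = 4), then EEF1A1, which brings aminoacyl-tRNA to the ribosome, with 5276 ± 87.6, and the glycolytic enzyme GAPDH with 4672 ± 115. Of the 30 most abundant genes, 14 encoded ribosomal proteins, 5 encoded histones whose genes are read out during DNA replication, and 11 belonged to neither family. Those 11 included the tubulin TUBA1B (3433 ± 116), the cytokine MIF (2877 ± 235), the class I antigen subunit B2M (2826 ± 109), the matrix glycoprotein SPARC (2676 ± 42.8), the mitochondrial chaperonin HSPD1 (2601 ± 36.5), the nucleolar protein NPM1 (2463 ± 78.8) and the glycolytic enzyme PKM (2403 ± 89.5). The 86 cytosolic ribosomal protein genes together held 12.0% ± 0.162 of the coding TPM, and the 66 replication-dependent histone genes 5.85% ± 0.275. Histone mRNAs of this kind lack a poly(A) tail and enter a library only where RNA is not selected by that tail, as here. RSEM, the program that made the values, divides reads among near-identical genes, so a single ribosomal protein or histone gene is less certain than its family.

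**Figure D1:**
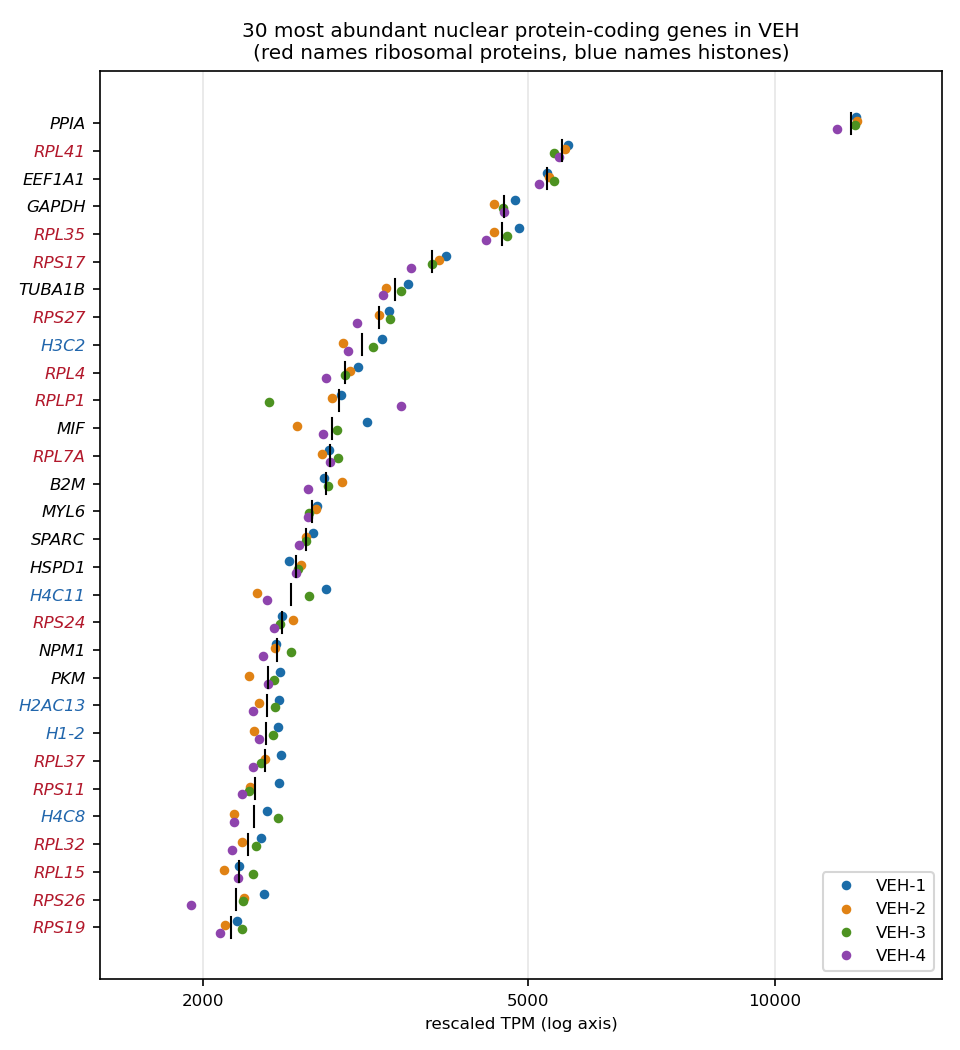
Levels of the 30 most abundant nuclear protein-coding genes in VEH, as rescaled TPM on a log axis. Each coloured point is 1 of the 4 samples and the black line is their mean. PPIA stood at 11912 to 12581, while the other 29 genes lay at or below 5589.

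The genes that supply cholesterol for steroids were all expressed, with 10 of 10 members at 1 or more in every VEH sample. The HDL receptor SCARB1 was the highest, with 564, 572, 535 and 639 in VEH-1 to VEH-4. SOAT1, which esterifies cholesterol for storage, stood at 388 ± 7.02. STAR, the carrier to the inner mitochondrial membrane, was at 226, 215, 244 and 223. TSPO, a protein of the outer mitochondrial membrane picked out after its values were seen, reached only 2.74 ± 0.537.

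CYP11A1 was the highest of the steroid enzymes, at 377, 366, 388 and 376 in VEH-1 to VEH-4. CYP17A1, which adds the hydroxyl group at carbon 17 and also splits off the side chain on the way to androgens, was at 204, 191, 202 and 199.5. CYP21A2, the steroid 21-hydroxylase, was at 118, 113, 122 and 117. The ranges of these 3 enzymes did not overlap. Within a sample their proportions hardly varied: CYP11A1 was 1.89 ± 0.0345 times CYP17A1, and CYP17A1 was 1.70 ± 0.0289 times CYP21A2. CYP21A2 has a pseudogene copy, CYP21A1P, that could take up its reads, and this copy stood at 0.254 ± 0.190.

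HSD3B2, the adrenal and gonadal enzyme that turns pregnenolone into progesterone, was far lower, at 3.62, 3.39, 3.97 and 3.07. CYP11A1 exceeded it 108 ± 10.5 times within a sample. Its near copy HSD3B1, best known from placenta and skin, was listed at 0 in VEH-1 and VEH-2 and stood at 0.532 and 0.968 in VEH-3 and VEH-4. HSD3B2 took 90.4% of the sum of the pair over the 4 samples and was the higher of both in all 4.

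CYP11B1, the 11β-hydroxylase that makes cortisol and the enzyme that MET inhibits, was listed at 0 in VEH-1, VEH-2 and VEH-4 and at 0.0409 in VEH-3. CYP11B2, the aldosterone synthase, was at 0 in VEH-1 and VEH-3 and at 0.0404 and 0.0403 in VEH-2 and VEH-4. Each value above 0 was a single unit of the last deposited decimal, and the sum of this pair of near-identical genes never passed 0.0409. At these levels neither gene could be set above the other. The paper reports that CJ28 and MET each lowered the cortisol released by these cultures, measured before their RNA was taken. The deposited TPM alone does not show whether the pair was unexpressed or its reads were not captured or not assigned, and this was not tested.

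The genes listed as electron donors, among them the redox partners of the steroid P450 enzymes, were all present, with 7 of 7 at 1 or more in every sample. The mitochondrial partners FDXR and FDX1 stood at 181 ± 12.2 and 47.7 ± 2.15, and POR, which serves the P450 enzymes of the endoplasmic reticulum, at 229 ± 10.7. CYB5A, the cytochrome b5 that favours the androgen-forming reaction of CYP17A1, was at 68.8 ± 3.93, below its mitochondrial relative CYB5B at 436 ± 35.7. Of 17 genes that form or clear androgens and estrogens, 11 (64.7%) were at 1 or more in every sample, near the 64.1% of all coding genes. SULT2A1, which makes DHEA sulfate, was at 41.5 ± 3.21, and AKR1C3, which makes testosterone from androstenedione, at 61.5 ± 5.39. Aromatase, CYP19A1, varied more, with 12.3, 12.6, 19.3 and 9.24 in VEH-1 to VEH-4, highest in VEH-3 and lowest in VEH-4. UGT2B7 and UGT2B17, which conjugate androgens for clearance, were listed at 0 in all 4 samples.

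In the order of levels from SCARB1 down, several neighbours overlapped between samples and could not be ranked apart. Among them were CYB5B with SOAT1, SOAT1 with CYP11A1, and POR with STAR. SCARB1 lay above CYB5B, CYP11A1 above POR, and STAR above CYP17A1 in every sample and without overlap.

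**Figure D2:**
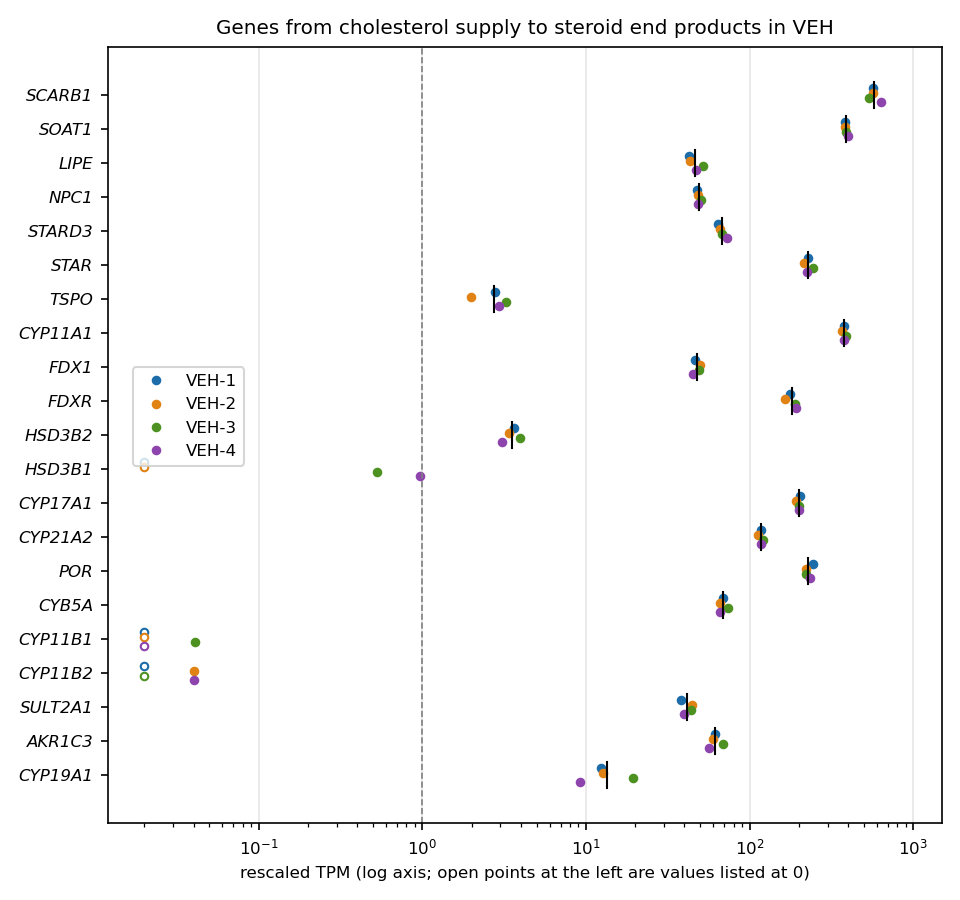
Genes from cholesterol supply to steroid end products in VEH, as rescaled TPM on a log axis with a dashed line at 1. Filled points are samples, open points samples listed at 0, and black lines means of genes above 0 in all 4 samples. CYP11A1, CYP17A1 and CYP21A2 lay between 113 and 388, HSD3B2 between 3.07 and 3.97, and CYP11B1 and CYP11B2 at or below 0.0409.

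The 3 abundant P450 genes are shown with the 250 bases before their RefSeq start, since NR5A1, the steroidogenic factor of the adrenal cortex, is known to act on promoters of this group. The sequences were read from the RefSeq table for build GRCh38.p14 and are written 5′ to 3′ on the strand of the gene. Capitals mark a match to CAAGGTC or CAAGGCC, the core letters of an NR5A1 site, searched on both strands. CYP11A1 (ENSG00000140459.18) is on the minus strand at chr15:74367647-74367896, CYP17A1 on the minus strand at chr10:102837414-102837663, and CYP21A2 on the plus strand at chr6:32038165-32038414.
CYP11A1: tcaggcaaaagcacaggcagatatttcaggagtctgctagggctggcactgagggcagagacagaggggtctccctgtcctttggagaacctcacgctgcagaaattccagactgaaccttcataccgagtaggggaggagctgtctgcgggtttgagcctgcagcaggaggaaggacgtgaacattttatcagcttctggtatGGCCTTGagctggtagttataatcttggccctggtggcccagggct
CYP17A1: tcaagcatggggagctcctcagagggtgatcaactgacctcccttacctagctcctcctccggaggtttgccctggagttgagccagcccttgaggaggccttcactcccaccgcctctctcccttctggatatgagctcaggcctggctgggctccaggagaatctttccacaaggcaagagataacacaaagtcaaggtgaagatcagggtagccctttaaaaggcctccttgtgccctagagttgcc
CYP21A2: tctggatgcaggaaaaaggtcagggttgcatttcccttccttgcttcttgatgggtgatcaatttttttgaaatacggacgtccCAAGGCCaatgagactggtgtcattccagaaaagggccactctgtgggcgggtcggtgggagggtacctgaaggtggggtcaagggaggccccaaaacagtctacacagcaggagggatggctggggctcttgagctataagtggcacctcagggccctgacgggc
CYP11A1 held 1 match, to CAAGGCC on the opposite strand, 46 bases before the start. CYP21A2 held 1 match, to CAAGGCC on its own strand, 166 bases before the start. CYP17A1 held 0 matches in this window, which says only that these letters are not in it. Of all 35116 windows of 250 bases in the table, 7.60% held at least 1 of both forms, so a match is no mark of a steroid gene. For CYP11A1 this start was the gene start of the deposited table, while for CYP17A1 and CYP21A2 it was another base.

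Genes of cholesterol synthesis stood high, with all 21 enzymes of the mevalonate and sterol path at 1 or more in every sample and 12 of them at 100 or more. HMGCS1, which starts the mevalonate path, was at 744, 803, 817 and 824 in VEH-1 to VEH-4. FDPS, which makes farnesyl diphosphate, was at 633 ± 25. DHCR7, of the last steps to cholesterol, was at 212 ± 5.68. SQLE, which makes squalene epoxide, was lower at 53.2 ± 2.61. These 21 genes together took 0.451% ± 0.0120 of the coding TPM. The 7 steroid enzymes CYP11A1, HSD3B1, HSD3B2, CYP17A1, CYP21A2, CYP11B1 and CYP11B2 took 0.0697% ± 0.00180. Nearly all of that came from CYP11A1 (0.0377%), CYP17A1 (0.0199%) and CYP21A2 (0.0117%), with HSD3B2 at 0.000351%. The summed share therefore hardly reflects the other members. Of the 8 genes that regulate cholesterol synthesis, 7 were at 1 or more in every sample.

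Genes that mark the zona glomerulosa were at 1 or more in every sample for 19 of 23. PCP4, a calmodulin regulator, was the highest and spread most among the leading ones, with 757, 914, 959 and 1059 in VEH-1 to VEH-4. DAB2, an endocytic adaptor used to mark this zone, was at 585 ± 44.5. The angiotensin II receptor AGTR1 was at 85.8, 86.1, 86.8 and 87.8, a coefficient of variation of 1.01%. The potassium channels KCNK3 and KCNJ5, which set the membrane potential of glomerulosa cells, were at 189 ± 7.07 and 81.2 ± 3.48, and the calcium sensor VSNL1 at 44.6 ± 4.17. CCN3, a secreted matrix-associated protein, was at 113 ± 1.45. The 3 members under 1 in all samples were CYP11B2, HSD3B1 and the serotonin receptor HTR4, which was named after its values were seen.

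Genes of the zona fasciculata were at 1 or more in every sample for 12 of 14. Beside SCARB1, STAR and CYP17A1, these were led by GSTA1, a glutathione transferase, at 285, 286, 290 and 291, and by ABCB1, the efflux pump P-glycoprotein, at 207 ± 9.65. The ACTH receptor MC2R was low, at 3.33, 4.36, 4.79 and 4.52. MRAP, which MC2R needs to reach the cell surface, was at 1.36, 0.929, 0 and 0.847. MC2R was above MRAP in every sample. NR0B1 (DAX-1), a nuclear receptor that holds back NR5A1, was at 12.0 ± 1.16.

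Genes of the zona reticularis were at 1 or more for 6 of 8, with the tetraspanin TSPAN12 at 135 ± 4.03 followed by CYB5A, AKR1C3, AIG1 at 44.0 ± 1.42, and SULT2A1. Genes of the capsule and its progenitors were at 1 or more for 6 of 13. DLK1, a membrane protein of fetal adrenal and progenitor cells, stood far above the rest at 720, 708, 610 and 719, with VEH-3 the lowest. GLI1, the target of Hedgehog signals, was at 7.59 ± 3.58 and the ligand SHH at 1.98 ± 0.122. TCF21, WT1 and RSPO1, which mark capsule cells and the early adrenal and gonadal ridge, were listed at 0 in all 4 samples.

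The median level over the members was 32.0 for the zona glomerulosa list, 111 for the zona fasciculata list and 42.8 for the zona reticularis list, against 0.702 for the capsule list. Over all genes at 1 or more in all 4 samples, the median was 28.2. That set leaves out genes under 1, whereas the list medians include them, so they are not like for like. SHH stands in both the zona glomerulosa and the capsule list.

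Transcription factors of the adrenal cortex were at 1 or more in every sample for 22 of 27. NR5A1 (steroidogenic factor 1), required for the adrenal gland to form, was at 201, 200, 185 and 194, 16.4 ± 1.88 times NR0B1 within a sample. CREM, a cAMP-responsive factor, was at 225 ± 5.26. CITED2 was at 13.3 ± 1.14, GATA6 at 6.45 ± 0.479 and GATA4, more typical of the gonad, at 6.21 ± 0.964. The ranges of GATA4 and GATA6 overlapped. NR5A2, WT1, TCF21 and LHX9 were listed at 0 in all 4 samples.

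Among 48 nuclear receptors, 37 were at 1 or more in every sample. The clock receptor NR1D2 (209 ± 9.47) and NR5A1 led, followed by RORB (138 ± 5.96), the fast-response receptor NR4A1 (90.2 ± 6.5) and the liver X receptor NR1H2 (87.9 ± 3.33). The glucocorticoid receptor NR3C1, through which cortisol acts, was at 14.4, 16.0, 15 and 15.2, and was 6.36 ± 0.393 times the mineralocorticoid receptor NR3C2 (2.39 ± 0.186). The estrogen receptor ESR1 was at 10.3 ± 1.3.

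The receptor side of hormone signalling was narrow. Of 34 hormone receptors and accessory proteins, 10 were at 1 or more in every sample and 8 were listed at 0 in all 4, namely VIPR2, ADCYAP1R1, LHCGR, FSHR, AVPR1B, MC3R, MC4R and AGTR2. The cAMP machinery downstream was broad, with 19 of 23 at 1 or more. GNAS, the stimulatory G protein, was at 703, 718, 604 and 704, with VEH-3 the lowest. PRKAR1A, a regulatory subunit of protein kinase A, was at 570 ± 23.1, PRKAR2B at 171 ± 3.51, and the phosphodiesterase PDE2A at 237 ± 15.1.

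Gonadal genes were at 1 or more in every sample for 5 of 16. The receptor AMHR2 was at 32.2 ± 1.58 and its ligand AMH at 17.5, 20.7, 17.2 and 20.7. The testis and ovary factors SOX9, FOXL2 and DMRT1 were at 0.102 ± 0.0528, 0.0813 ± 0.0570 and 0.0406 ± 0.0469, and the gonadotropin receptors LHCGR and FSHR were listed at 0 in all 4 samples.

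The adrenal medulla makes catecholamines from neural crest cells. TH, which opens catecholamine synthesis, was listed at 0 in all 4 samples, DBH was at 0.0407 ± 0.0330 and PNMT at 0.0409 ± 0.0818. The vesicle transporter SLC18A1, STMN2 and NPY were listed at 0 in all 4. Even so, 15 of the 32 genes of the medulla list were at 1 or more in every sample, most of them general genes of neurons and secretory cells. The adhesion molecule NCAM1 was at 159, 161, 153 and 177, the neurofilament NEFL at 94.9 ± 3.44, the secreted precursor VGF at 80.7 ± 5.77 and the vesicle protein SYP at 44.5 ± 0.914. CHGB was at 25.3 ± 0.807 and CHGA, the usual marker of chromaffin cells, at 3.29 ± 0.456.

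Markers of other cell types were mostly low, with 11 of 38 at 1 or more in every sample. None of the 5 endothelial markers reached 1, and their summed level was 0.282 to 0.444 per sample, with PECAM1 at 0. None of the 7 immune markers was at 1 or more in every sample, with a summed level of 1.23 to 3.78 and CD3E at 0. Of the 7 fibroblast markers 3 were at 1 or more, with a summed level of 16.0 to 18.7, and of the 8 epithelial markers 2 were, with 30.1 to 33.4. The epithelial pair was EPCAM at 19.2 ± 1.75 and KRT18 at 9.90 ± 0.547, while KRT5, KRT14 and KRT19 were listed at 0. Of the 7 liver markers 4 were at 1 or more, with a summed level of 12.5 to 15 and AFP, the fetal serum protein, at 5.85 ± 1.06. Of the 4 kidney markers 2 were, with 13.2 to 20.6, and SLC12A1, a salt transporter of the kidney tubule, stood at 16.4 ± 3.14. Among genes that mark adrenocortical cells, NR5A1, STAR, CYP11A1 and CYP17A1 were high, HSD3B2, MC2R, MRAP and INHA were low, at means of 3.51, 4.25, 0.783 and 6.81, and CYP11B1 and CYP11B2 were at or next to 0. These genes mark the adrenal cortex and do not tell carcinoma from normal cells.

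Genes linked to adrenocortical tumours were at 1 or more in every sample for 74 of 85. CTNNB1, which encodes β-catenin, was at 885, 884, 893 and 863. Genes read out under β-catenin were present too, with AXIN2 at 86.8, 86.2, 96.0 and 87.6, LEF1 at 78.7 ± 8.95, and ZNRF3, which removes Wnt receptors, at 24.2 ± 1.62. Of the 14 genes of the Wnt axis, 13 were at 1 or more in every sample. The exception was the cyclin CCND1, counted here as a β-catenin target and named after its values were seen, at 0.576, 0.485, 0.245 and 0.202.

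IGF2, the fetal growth factor often raised in adrenocortical carcinoma, was at 383, 439, 255 and 390, with VEH-3 the lowest. H19, the non-coding RNA of the same imprinted domain, was at 1.23, 1.54, 2.21 and 1.69, so that IGF2 exceeded it by 116 to 310 times within a sample. IGF2 overlaps other annotated genes on both strands, and its value depends on how reads were divided among them. CDKN1C, the growth inhibitor of the neighbouring domain, was at 0.569 ± 0.235. The receptor IGF1R was at 74.0 ± 11.8, while the binding proteins IGFBP1 and IGFBP4 were listed at 0 in all 4 samples.

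Cell cycle genes were widely expressed, with 21 of 22 at 1 or more in every sample and a median of 101. STMN1, a microtubule regulator, was at 1697 ± 60.3, TOP2A at 386 ± 9.38, CDK4 at 369 ± 5.25 and the proliferation marker MKI67 at 168, 190, 159 and 196. The inhibitor CDKN2A was at 251 ± 16.4, whereas RB1 was at 36.3 ± 0.943. The one member under 1 in all samples was CDKN1C. TERT, the catalytic part of telomerase, was at 0 in VEH-1 and VEH-2 and at 0.0409 and 0.0807 in VEH-3 and VEH-4, while the chromatin factors ATRX and DAXX were at 78.8 ± 3.14 and 80.7 ± 2.12. G0S2, a lipolysis inhibitor, was listed at 0 in all 4 samples.

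Imprinted genes, of which cells read only the copy from 1 parent, were at 1 or more in every sample for 19 of 22. PEG10 stood at 731, 737, 592 and 682, and MEG3, the non-coding partner of DLK1, at 306, 305, 267 and 306. DLK1 was 2.33 ± 0.0319 times MEG3 within a sample. MEST (221 ± 12.7), PEG3 (220 ± 8.50) and PLAGL1 (187 ± 10.9) were also above 100.

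Of 44 secreted factors, 28 (63.6%) were at 1 or more in every sample, near the 64.1% of all coding genes. SPARC led with 2729, 2676, 2673 and 2624, and clusterin, CLU, followed DLK1 at 372 ± 17.5. INHA, the inhibin subunit used as an adrenocortical marker, was only at 7.73, 6.10, 6.38 and 7.02, and the activin subunits INHBA and INHBB were at 0.549 ± 0.133 and 0.173 ± 0.108. FST, which binds activins, was at 57.0 ± 3.55. The peptide CRH, VIP, NPY and the cytokine IL6 were listed at 0 in all 4 samples.

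HOX genes set position along the body axis in the embryo. In every VEH sample 25 of 39 (64.1%) were at 1 or more, the same share as over all coding genes (64.1%). The HOXA cluster had 10 of 11 and the HOXB cluster 8 of 10, against 4 of 9 in HOXC and 3 of 9 in HOXD. HOXB7 was the highest at 46.0, 49.1, 42.9 and 50.2, followed by HOXA11 at 38.7 ± 1.65, HOXA10 at 33.3 ± 1.61 and HOXA13 at 31.7 ± 0.334. HOXB1 and HOXD11 were listed at 0 in all 4 samples. Many HOX genes overlap a neighbour or an antisense gene, as do many other genes named above. Whether the counting used strand is not stated in the sources used here.

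**Figure D3:**
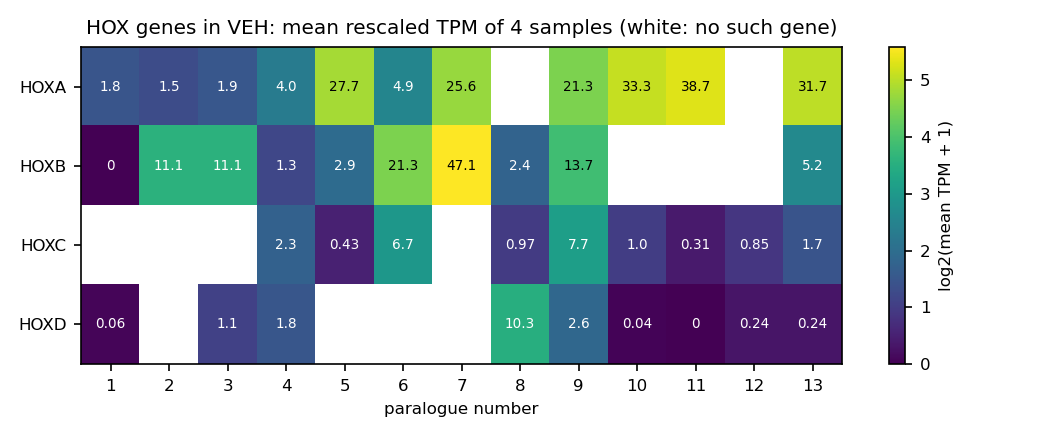
Mean rescaled TPM of the 39 HOX genes over the 4 VEH samples, by cluster and paralogue number, coloured by log2(mean TPM + 1), with the mean printed in each cell. White cells have no gene. HOXB7 and HOXA11 were the highest, at 47.1 and 38.7, and most HOXC and HOXD genes lay below 3.

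MAGE genes, normally read in the germ line and switched on in some tumours, were at 1 or more in every sample for 9 of 26. MAGEA3 was at 366, 365, 380 and 358, MAGEA6 at 252 ± 4.43, MAGEA12 at 200 ± 4.87 and MAGEC2 at 146 ± 2.29. The near-identical pair MAGEA2B and MAGEA2 was at 251 ± 30.9 and 96.7 ± 23.9, and it varied more between samples than MAGEA3 did. Of 55 cytochrome P450 genes, 20 were at 1 or more, led by CYP11A1, CYP17A1, CYP51A1 of cholesterol synthesis (196 ± 6.23) and CYP21A2. CYP26B1, which breaks down retinoic acid, was at 23.6 ± 1.97.

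Whole families were silent or nearly so. None of 94 keratin-associated protein genes, 14 interferon alpha and beta genes or 45 defensin genes was at 1 or more in every sample. Of 383 olfactory receptor genes 2 were, and 248 were listed at 0 in all 4 samples. Of 54 keratins 5 were, led by KRT10 at 30.8 ± 3.42, and 32 were listed at 0. Taste receptors departed from the other sensory family, with 16 of 27 at 1 or more, led by TAS2R19 at 14.5 ± 3.39. The 12 highest of them lie on chromosome 12, and 10 of these 12 overlap the annotated span of PRH1 on the same strand, so reads of a longer transcript cannot be told apart from their own.

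The gene with the largest coefficient of variation among the 9558 genes with a mean of at least 10 was AC022506.1, at 95.1 in VEH-1 and at 0 in the other 3. The annotated span of this gene overlaps DDIT3 on the same strand. The histone genes H3C14 (385, 59.5, 82.3 and 33.0) and H3C15 (50.9, 316, 332 and 357) went opposite ways in VEH-1. SLX1A and SLX1B likewise are a near-identical pair, at 14.3 ± 8.08 and 16.9 ± 7.81. LUZP6, which shares its span with MTPN, was at 17.3 ± 18.0, and RPS16 was the single ribosomal protein among the 10, at 370, 437, 261 and 812. BCAS3, AC073896.1 and U2AF1L5 completed the 10, with coefficients of variation of 75.9%, 57.5% and 48.6%. Over the 9558 genes the median coefficient of variation was 6.17%.

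To see where the VEH profile differs from that of treated cells, 5 values per sample were compared between VEH and each compound by two-sided exact permutation tests, adjusted over the 10 tests by the Benjamini-Hochberg method. The smallest p that 4 against 4 samples can give is 0.0286. Both comparisons use the same VEH samples, so they are not independent of each other. The gene sets were chosen with earlier results of these data known. From the same experiment the paper had reported altered steroidogenic genes with CJ28 only, CYP11A1, HSD3B2 and CYP17A1 among them. The p-values for these sets are therefore descriptive and no independent support.

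The share of the cholesterol synthesis enzymes was 0.433%, 0.456%, 0.460% and 0.453% in VEH, above all CJ28 samples (0.195% ± 0.00306) and above all MET samples (0.428% ± 0.00152). Both differences gave the smallest p (exact permutation p = 0.0286, adjusted p = 0.0714). They were unlike in size, at 0.256 percentage points from CJ28 and 0.0225 from MET. The lowest VEH sample (0.433%) lay next to the highest MET sample (0.430%). The share of the 7 steroid enzymes was 0.0703%, 0.0673%, 0.0716% and 0.0697% in VEH, nearly all from CYP11A1, CYP17A1 and CYP21A2. It was above all CJ28 samples (0.0298% ± 0.000475) with the same p and adjusted p. In MET it was 0.0705% ± 0.000504, within the range of VEH (exact permutation p = 0.543, adjusted p = 0.603). The ribosomal protein share of VEH was below all CJ28 samples (13.9% ± 0.278, exact permutation p = 0.0286, adjusted p = 0.0714) and overlapped MET (12.2% ± 0.0946, exact permutation p = 0.171, adjusted p = 0.286). This difference depended on the divisor: with TPM as deposited over all genes, VEH minus CJ28 was -0.0183 percentage points, within the spread of the samples (exact permutation p = 0.60). With 10 tests, none of the adjusted values was under 0.05. That would need more tests at the smallest p than the 4 found here, however far apart the groups lay.

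The number of coding genes at 1 or more per sample was 13282 ± 61.4 in VEH, 13211 ± 44.9 in CJ28 (exact permutation p = 0.143, adjusted p = 0.286) and 13250 ± 41.7 in MET (exact permutation p = 0.371, adjusted p = 0.50). The 50 most abundant genes of each sample held 13.6% ± 0.292 in VEH, 13.7% ± 0.249 in CJ28 (exact permutation p = 0.657, adjusted p = 0.657) and 13.7% ± 0.0424 in MET (exact permutation p = 0.400, adjusted p = 0.50). The ranges overlapped in all 4 of these comparisons. When ribosomal protein and histone genes were taken out, the 50 most abundant remaining genes held 1.3 percentage points more in VEH than in CJ28 (exact permutation p = 0.0286, adjusted p = 0.0571). By name, 49 of the 50 most abundant genes of VEH were among the 50 of MET, and 33 were among the 50 of CJ28.

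**Figure D4:**
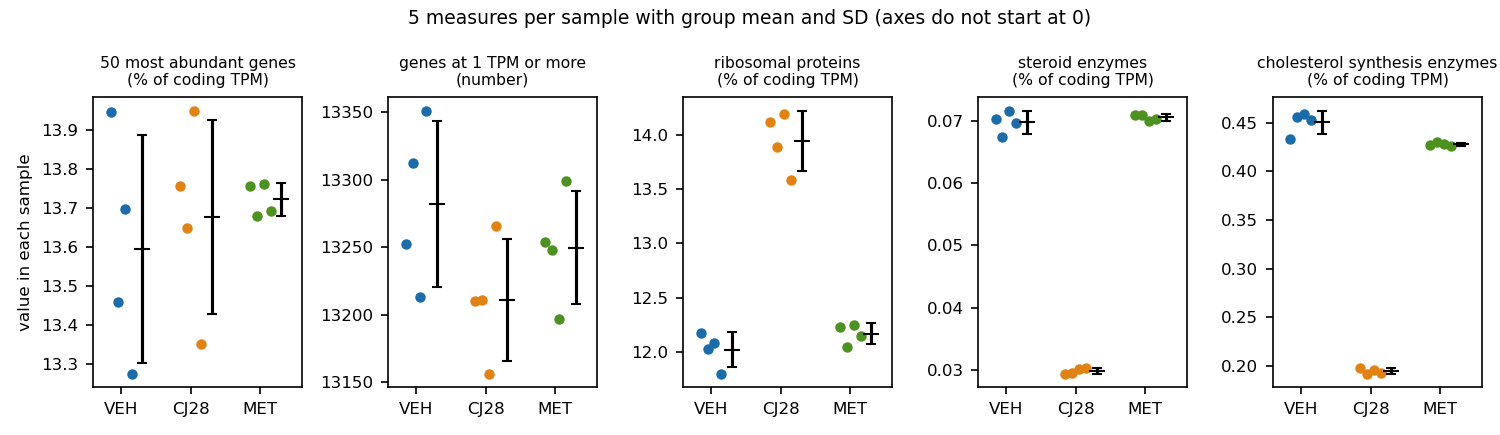
The 5 compared values in each sample of VEH, CJ28 and MET, with the group mean and SD (n = 4) beside the points. Shares are percent of coding TPM and the axes do not start at 0. The VEH points for steroid enzymes (0.0673% to 0.0716%) lay above the CJ28 points (at most 0.0303%) and overlapped MET.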

How the data were processed

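RNA was sequenced from 12 H295R samples, 4 each of VEH, CJ28 and MET, grouped by their labels. Per the submitters' processing notes and the paper's methods, the authors trimmed reads with Cutadapt 2.8, mapped them to GRCh38 with STAR 2.7.10b and deposited gene-level TPM from RSEM 1.3.3, to 2 decimals. The annotation release and the strand setting are not given in the sources used here. Of 692 genes looked up, 355 overlapped an annotated gene on the opposite strand and 224 one on the same strand. STAR, CYP17A1, CYP21A2 and CTNNB1 were among those with an opposite-strand overlap. TPM of all other genes, mitochondrial ones included, lowers that of coding genes, so TPM was rescaled over 19926 nuclear protein-coding genes, with 18 Y copies of pseudoautosomal genes added to their X copy. Non-coding genes used the same divisor.

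Means and SD (n = 4) were computed with Python 3.11.15, numpy 2.4.6 and pandas 2.3.3, and figures drawn with matplotlib 3.10.9. Single values were compared by two-sided exact permutation tests. The functions were tested on simulated data. Detection meant 1 or more in all 4 samples. Named genes were the 30 most abundant, core members of each list, up to 6 further highest members and those at 0 in all samples, the 6 highest of each family, and the 10 most variable. Members and lists were chosen with earlier results of these data known. The alternatives were other denominators, thresholds of 0.5 and 2, 20 or 100 genes, median-of-ratios scaling, medians, a replicate block and leaving out each sample.
Some members of the lists are counted but not reported by name here.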

Additional observations from a re-analysis of the deposited data

Results flagged for a closer look

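In 137 groups of 4 samples examined, 10 had a highest or lowest sample set apart from the others by more than 0.829 of the range of the group. Of these, 4 were among the 10 genes named for their large coefficient of variation, which were chosen for outlying samples and are not to be set against chance. The other 6 came from 127 groups, where chance sets apart about 1 in 20. VEH-3 was apart in 4, with the lowest DLK1 (610 against 708 to 720), MEG3 (267 against 305 to 306) and GNAS (604 against 703 to 718), and the highest AXIN2 (96.0 against 86.2 to 87.6). VEH-1 was apart in 5, with the lowest HOXA10 (31.0 against 33.8 to 34.4), the highest AC022506.1 (95.1 against 0 in the others), BCAS3 (41.4 against 10.3 to 14.5) and H3C14 (385 against 33.0 to 82.3), and the lowest H3C15 (50.9 against 316 to 357). VEH-4 was apart in 1, with the lowest PPIA (11912 against 12515 to 12581).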

How the results depend on the processing

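No adjusted p was under 0.05 in any setting run, and the 4 differences with the smallest p kept their direction in all. The smallest possible p was 0.0286, or 0.125 with the replicate block. An adjusted p under 0.05 would need more tests at 0.0286 than any setting gave. Its absence therefore says nothing of how far apart the groups lay. With TPM as deposited, the ribosomal protein difference from CJ28 shrank to -0.0183 percentage points (exact permutation p = 0.60). The cholesterol enzyme difference from MET then had an exact permutation p of 0.0571. It had the same exact permutation p of 0.0571 with each MET sample left out in turn. Of the other 6 differences, 4 changed sign in some setting, among them the share of the 50 most abundant genes against CJ28 (0.426 percentage points with TPM as deposited, 1.3 without ribosomal protein and histone genes, 0.0239 without VEH-4, 0.0082 without CJ28-3). Counts of detected genes stayed within 1.5 times apart from 6 lists. With TPM as deposited over all genes, the members at 1 or more were 5 for other cell types, 15 for HOX genes, 3 for keratins, 0 for olfactory receptors and 9 for taste receptors. A threshold of 2 left 6 for other cell types and 1 for olfactory receptors, and a threshold of 0.5 gave 6 olfactory receptors and 1 defensin. Without ribosomal protein and histone genes in the divisor there were 4 olfactory receptors, and leaving out each VEH sample gave 2 to 5, with 5 when VEH-1 was left out. Of the 170 named levels, 127 moved by over 1 SD with TPM as deposited and 107 without those families in the divisor. A new divisor multiplies all genes of a sample by the same factor, 4.03 to 4.11 from deposited to rescaled TPM. With median-of-ratios scaling, whose factors were 0.992 to 1.01, 0 moved. With 4 samples, neither the median nor leaving out 1 sample can shift a level by over 1 SD. Their counts of 0 were therefore fixed in advance and say nothing about stability. With the replicate number as a replicate block, the difference in steroid enzyme share between VEH and CJ28 was unchanged at 0.0399 percentage points (exact sign-flip permutation p = 0.125, the smallest that 4 pairs allow). Such a design cannot reach 0.05 and says nothing about stability. Deviations of same-numbered samples correlated at -0.143 to 0.0730 over genes. Differently numbered samples were not correlated for reference, so whether the numbers pair the samples was not tested. The number of reads behind each value is unknown, which limits what can be said of genes below 1.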

Other observations

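Several genes outside the lists, named after their values were seen, were also prominent in VEH, on the same rescaled TPM (mean ± SD, n = 4). SMS, which makes spermine, stood at 1291 ± 23.9, EPRS1, a tRNA synthetase, at 1222 ± 25.4 and the transferrin receptor TFRC at 1195 ± 30.0. The membrane protease MME (neprilysin) was at 819 ± 13.6, the enzyme QPCT, which forms pyroglutamate on peptides, at 729 ± 23.4, and SYTL2, a vesicle-trafficking protein, at 702 ± 26.5. LSP1, an actin-binding protein best known from leukocytes, was at 581 ± 29.8, PDK4, which switches off pyruvate dehydrogenase, at 510 ± 30.0, the laminin chain LAMB1 at 432 ± 23.2 and the secreted protein TAFA4 at 413 ± 11.3. GSTP1, a glutathione transferase of many epithelial cells, was listed at 0 in 3 samples and at 0.161 in VEH-4, whereas GSTA1 of the same superfamily stood at 288 ± 2.93.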
